A study of Mus musculus with 9 samples.

Results

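Brain RNA of mice that received 4-phenylbutyric acid (4-PBA), a chemical chaperone used to relieve endoplasmic reticulum (ER) stress, was compared with brain RNA of mice that did not receive it. The comparison uses 6 of the 9 libraries of the series, 3 labelled CVST+Ligation and 3 labelled 4-PBA, chosen by their sample names, and all 20731 genes of the count table. In both groups, thrombosis had been induced in the superior sagittal sinus with ferric chloride (cerebral venous sinus thrombosis, CVST) and the deep cervical lymph nodes had been ligated, so that the drug is the labelled difference. The third group of the series, CVST without ligation, entered the fit for its estimate of the spread and is quoted only for its levels. The animals were male C57BL/6J mice of 8 to 10 weeks, sampled on day 2 after modelling. According to the methods, 4-PBA was injected intraperitoneally at 100 mg/kg, 30 min before modelling, whereas the design text of the series places the drug after ligation. Control mice are said to have received solvent, but the labels show no solvent group. The labels name the tissue as brain and the design text as cortex. According to the methods, 3 mice of each of these groups were set aside for sequencing, as many as there are libraries, so the p-values measure the spread between mice where each library is 1 mouse.

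The ER folds secreted and membrane proteins, and when unfolded proteins accumulate there, 3 sensors start the unfolded protein response (UPR). IRE1 (gene Ern1) splices Xbp1 mRNA, ATF6 is cut into a transcription factor, and PERK (gene Eif2ak3) phosphorylates eIF2α, which lowers translation while allowing that of ATF4. ATF6 and XBP1 raise chaperone genes such as Hspa5 (GRP78, BiP), and ATF4 raises amino acid genes and Ddit3 (CHOP), which is tied to cell death when the stress lasts. Since 4-PBA also inhibits histone deacetylases, the genes of that family are described as well.

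The question the comparison addresses is whether RNA of this response, and of the oxidative and inflammatory genes the study followed, differed with 4-PBA. Among ER stress markers, the study also used RT-qPCR for 4 transcripts, Ddit3, Bbc3 (PUMA), Atf4 and Casp12. Their primers are shown because they fix which stretch of each transcript that assay sees. Each pair matched the transcripts of 1 gene only in the GENCODE annotation of GRCm38. All lie in coding sequence, and the products do not span an intron. The product is 112 bases long for Ddit3 (chr10:127295806-127295917, plus strand, exon 4 of 4), 153 bases for Bbc3 (chr7:16313645-16313797, plus strand, exon 3 of 4), 180 bases for Atf4 (chr15:80256831-80257010, plus strand, exon 3 of 3) and 164 bases for Casp12 (chr9:5353674-5353837, plus strand, exon 7 of 11).
Ddit3 forward: cacatcccaaagccctcg
Ddit3 reverse: tgggcactgaccactctgttt
Bbc3 forward: caccagcccagcagcactt
Bbc3 reverse: tgaggtcgtccgccatcc
Atf4 forward: ggccatctcccagaaagtttaat
Atf4 reverse: aatgtaagcagcagagtcaggc
Casp12 forward: agcaccagtcctcagacagcac
Casp12 reverse: gggtttgtttctcagactccga

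Some promoters of the listed genes carry the letters that UPR factors read, and they are shown because they group the genes without using any measured value. The ER stress response element (ERSE) of ATF6 was searched as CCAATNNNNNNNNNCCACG on both strands in RefSeq promoters of GRCm38.p6, from 250 bases before to 50 bases after each gene start. It was found in 0.181% of the 11572 tested genes with a promoter in the table, in 8 of 24 genes (33.3%) of a list of ER chaperones and folding enzymes, and in 0 of 16 UPR sensors and transcription factors. In the lines that follow, capitals mark the element, in the direction of the gene, with 5 bases on each side. Of the genes shown, Derl3 is from a list of ER-associated degradation and translocation.
Hspa5 (chr2:34772020-34772048, plus strand): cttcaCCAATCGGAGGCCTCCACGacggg
Pdia6 (chr12:17266486-17266514, plus strand): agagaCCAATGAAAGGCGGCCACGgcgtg
Calr (chr8:84847070-84847098, minus strand): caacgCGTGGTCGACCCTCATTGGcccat
Canx (chr11:50325795-50325823, minus strand): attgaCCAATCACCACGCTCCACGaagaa
Dnajc3 (chr14:118937822-118937850, plus strand): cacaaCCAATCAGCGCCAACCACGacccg
Creld2 (chr15:88819515-88819543, plus strand): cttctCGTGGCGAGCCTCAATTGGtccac
Ero1b (chr13:12565677-12565705, plus strand): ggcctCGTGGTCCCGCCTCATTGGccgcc
Derl3 (chr10:75893237-75893265, plus strand): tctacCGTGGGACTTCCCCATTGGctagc

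Hsp90b1, which encodes GRP94, held 2 such elements, and Syvn1, which encodes the ubiquitin ligase HRD1, held 1. The element that ATF4 shares with C/EBP factors, searched as TGATGNAA on both strands, was found in 2.87% of all these promoters and in 11 of 35 genes (31.4%) of a list of integrated stress response and ATF4-CHOP targets. Examples with 10 bases on each side follow, the element again in capitals.
Asns (chr6:7693215-7693242, minus strand): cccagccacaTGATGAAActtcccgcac
Chac1 (chr2:119351039-119351066, plus strand): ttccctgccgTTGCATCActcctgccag
Atf3 (chr1:191183426-191183453, minus strand): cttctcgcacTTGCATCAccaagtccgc

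The 6 libraries held 18100739 to 25091498 counted reads. Levels are in CPM (reads of a gene relative to the library total, scaled by the TMM method). A floor of 3 counts, used for ratios against a group without any count, equals 0.114 to 0.163 CPM. Printed values below it rest on fewer than 3 counts. Log2 CPM values correlated across genes with r of 0.967 to 0.978 among the 4-PBA libraries and 0.987 between CVST+Ligation 1 and 3. CVST+Ligation 2 stood apart from these with 0.954 and 0.956, below its r of 0.961 to 0.966 with the 4-PBA libraries. 4-PBA 3 correlated at 0.979 with CVST+Ligation 3, above its r with the other 4-PBA libraries (0.967 and 0.971). CVST+Ligation 2 held the highest level of the 6 libraries for 20 of 21 tested cerebellar genes. Gabra6, a granule cell GABA receptor subunit, had 0, 211 and 5.23 CPM in the CVST+Ligation libraries and 0 in each 4-PBA library. Results are therefore given with and without CVST+Ligation 2 where they rest on it. Defining genes of neurons, astrocytes, oligodendrocytes, microglia and endothelium were present in all 6 libraries. Markers of regions outside the cortex were present too, such as the dopamine transporter gene Slc6a3 with 5.62 to 66.2 CPM in CVST+Ligation and 54.4 to 69.5 CPM in 4-PBA libraries. In bulk tissue, fewer cells of a type and less RNA per cell cannot be told apart, and the part of tissue composition in the results was not tested.

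By unadjusted p, the strongest differences were in hypothalamic genes such as Hcrt, Nkx2-1, Pomc and Pmch, which were higher in the 4-PBA libraries. The genes of the ER stress response were nearly level between the groups. Of 14746 genes tested, 476 (3.23%) had an unadjusted p below 0.05 in edgeR's quasi-likelihood test and are referred to as called, 267 (1.81%) higher and 209 (1.42%) lower with 4-PBA. No gene passed 0.05 after Benjamini-Hochberg adjustment, where DESeq2 called 22 and limma on log2(FPKM + 1) called 2. The smallest adjusted p of edgeR's quasi-likelihood test was 0.111, for Hcrt. The groups did not overlap in 1140 genes (7.73%), and an exact permutation test of 3 against 3 libraries cannot give a p below 0.1. The median log2 fold change (4-PBA minus CVST+Ligation) of all genes was -0.02, and its 95% interval reached a median of 0.54 to each side. Called genes that were higher had a median log2 fold change of 1.36 and a median level of 1.93 CPM in the CVST+Ligation group. Those that were lower had -0.61 and 42.0 CPM. Of the 476 genes, 90 were called in each of the 6 fits that left out 1 library, and without CVST+Ligation 2 the number of called genes was 1497 of 14950 (10%), the share against which every list count without that library stands. The 2 sets shared 307 genes, 64.5% of the first and 20.5% of the second.

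**Figure D1:**
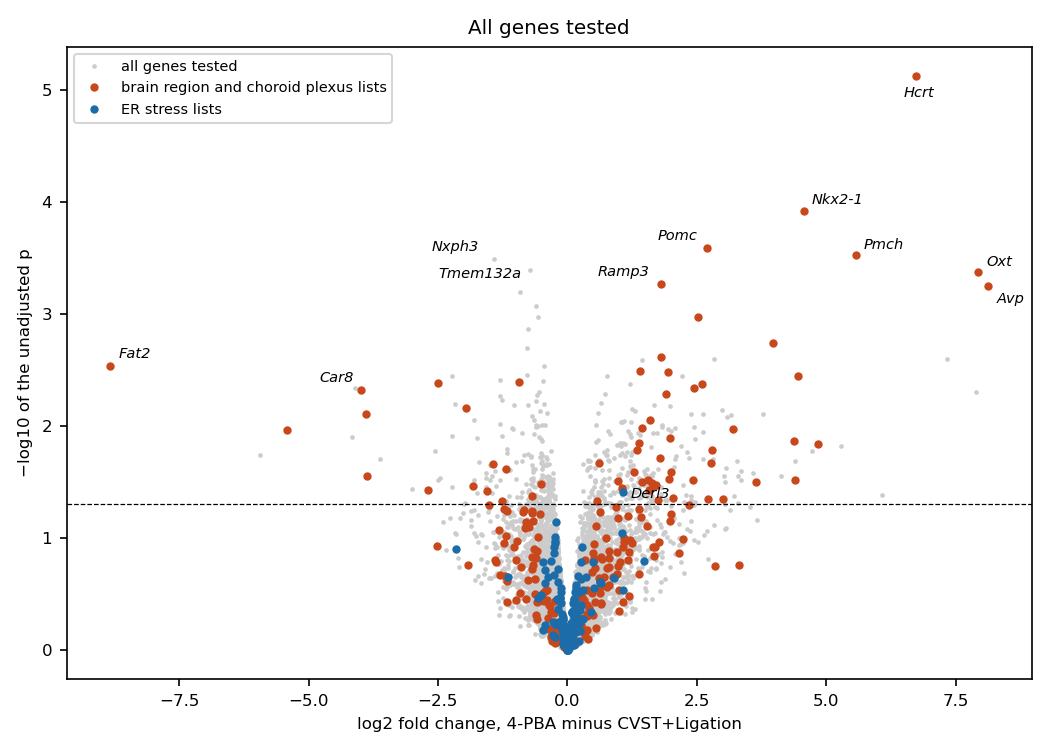
Log2 fold change (horizontal, 4-PBA minus CVST+Ligation) against −log10 of the unadjusted p of edgeR's quasi-likelihood test (vertical) for the 14746 genes tested, with a dashed line at the threshold for called genes. Genes of the ER stress lists (blue) lie at the foot of the plot, with Derl3 as the only one above the line. Among genes of the brain region and choroid plexus lists (red), Avp lies furthest to the right and Fat2 furthest to the left, and Hcrt stands highest.

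Among genes also measured by other assays, none of the ER stress markers was called with all libraries. Casp12 was called higher without CVST+Ligation 2. The study reported that the drug lowered the ER stress transcripts it read by RT-qPCR. It also reported lower ER stress proteins by immunofluorescence and western blot. Why the sequencing and the RT-qPCR differ was not tested. Ddit3, the gene of the pro-apoptotic factor CHOP, had 46.9, 46.0 and 54.9 CPM in the CVST+Ligation libraries and 41.5, 47.7 and 44.7 CPM with 4-PBA. The ranges overlapped, and the log2 fold change was -0.14 (95% interval -0.47 to 0.18). Atf4 had 213, 196 and 263 CPM against 209, 211 and 222 CPM, all 4-PBA values lying inside the range of the other group, and a log2 fold change of -0.07 (95% interval -0.46 to 0.33). Casp12, the gene of an ER-associated caspase, had 0.992, 4.59 and 1.27 CPM against 1.90, 2.15 and 2.36 CPM, with CVST+Ligation 2 the highest of all. Its log2 fold change was -0.09 (95% interval -1.32 to 1.14) with that library and 0.93 without it (unadjusted p = 0.0432, edgeR's quasi-likelihood test). Bbc3, a BH3-only activator of apoptosis, had 1.49, 1.13 and 1.54 CPM against 0.975, 1.47 and 1.45 CPM, with a log2 fold change of -0.09 (95% interval -0.86 to 0.68).

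Hspa5, the ER chaperone GRP78 whose promoter element is printed above, had 872, 739 and 864 CPM without and 930, 819 and 936 CPM with 4-PBA. The log2 fold change was 0.12 (95% interval -0.21 to 0.45). The kinase gene Eif2ak3 lay between 44.2 and 51.7 CPM against 39.9 to 53.0 CPM, and Eif2s1, which encodes eIF2α itself, between 66.2 and 100 CPM against 71.3 to 90.6 CPM. Phosphorylation of either protein is not seen in RNA. In the CVST group, Ddit3 lay at 49.7 to 65.7 CPM, Atf4 at 210 to 331 CPM and Hspa5 at 728 to 979 CPM. This list was chosen for assays on the same model and is not independent evidence. Among its 17 tested genes, the 1 called gene was Rbfox3, which encodes the neuronal protein NeuN. It had 145, 138 and 159 CPM without and 105, 120 and 119 CPM with 4-PBA, so that all 4-PBA libraries were below all others. Its log2 fold change was -0.36 (SE 0.14), and the call held in 3 of the 6 fits that left out 1 library. Gfap, the astrocyte filament gene, had 353, 418 and 1621 CPM in the 4-PBA libraries, so that 4-PBA 3 was above and the other two below every CVST+Ligation library (665 to 800 CPM). Its log2 fold change was 0.10 (SE 0.52) with all libraries and -0.95 without 4-PBA 3 (unadjusted p = 0.00738, edgeR's quasi-likelihood test).

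Over all stress lists of the ER, 1 of 158 tested genes (0.633%) was called, where 3.23% of all genes were. The median log2 fold change of these genes was 0.003, with quartiles of -0.10 and 0.13, and the 95% interval lay within 1 log2 unit of 0 for 118 of them. Leaving out CVST+Ligation 2 gave 5 of 159 called higher and 3 lower, or 5.03%, where 10% of all genes were called in that fit. Among the sensors and transcription factors of the UPR, 0 of 18 were called (1 higher and 1 lower without CVST+Ligation 2). Xbp1 had 148, 156 and 154 CPM against 162, 140 and 161 CPM, and counts per gene do not separate its spliced from its unspliced form. Atf6 and Ern1 had log2 fold changes of -0.24 (SE 0.43) and -0.51 (SE 0.48). Atf3, a stress-induced factor, varied most, with 1.16, 2.11 and 3.30 CPM against 0.217, 7.07 and 6.55 CPM, so that 4-PBA 1 was the lowest library and 4-PBA 2 and 3 the highest. Without 4-PBA 1 its log2 fold change was 1.65 and called, against 1.08 (SE 0.96) with all libraries.

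**Figure D2:**
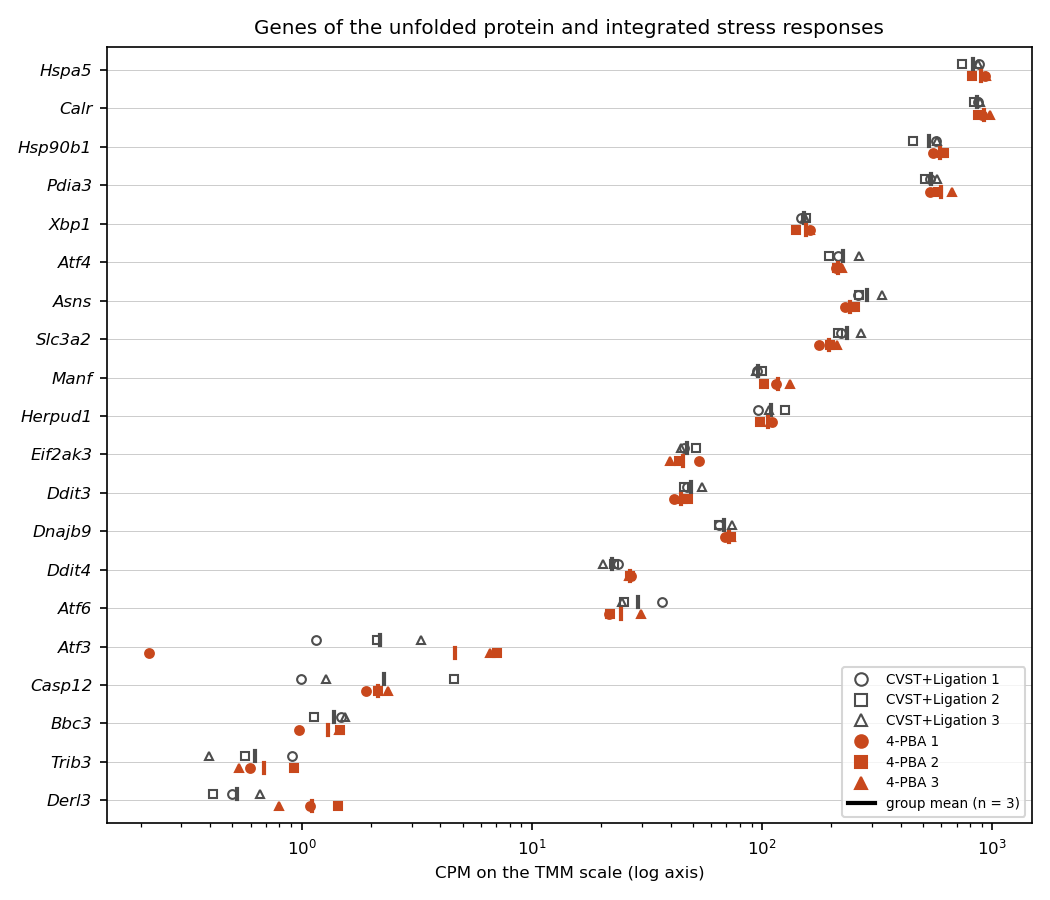
CPM on a log axis (horizontal) of 20 genes of the unfolded protein and integrated stress responses, with 1 point per library, CVST+Ligation open and 4-PBA filled, and a bar at the mean of each group of 3. The 2 groups lie over each other for most genes, with Manf, Ddit4 and Derl3 higher and Asns and Slc3a2 lower in all 4-PBA libraries.

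ER chaperones and folding enzymes leaned slightly upwards without a called gene. Of 27 tested, 21 had a positive log2 fold change, with a median of 0.09 against -0.02 for all genes. The groups did not overlap for Manf, a secreted factor induced by ER stress, and for its relative Cdnf, which is 7.41% of the list, where 7.73% of all genes did not overlap. Manf had 94.8, 99.4 and 93.7 CPM without and 115, 102 and 133 CPM with 4-PBA. The log2 fold change of 0.28 (SE 0.17) had an unadjusted p of 0.12 in edgeR's quasi-likelihood test. 4-PBA 3 held the highest level of the 6 libraries for 13 of the 27. The 8 genes of this list with an ERSE, which include Hsp90b1 but not Derl3, had a median log2 fold change of 0.11 and 0 calls. They ran from -0.17 (SE 0.21) for the oxidase gene Ero1b to 0.21 (SE 0.20) for Creld2. Calr, the lectin chaperone calreticulin, had 0.09 (SE 0.12) and Dnajc3, an inhibitor of PERK, 0.05 (SE 0.15).

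In the ER-associated degradation and translocation list, which holds the machinery that draws misfolded proteins out of the ER, 1 of 28 was called. Derl3, a channel component induced by the UPR in secretory cells, had 0.496, 0.412 and 0.659 CPM without and 1.08, 1.43 and 0.800 CPM with 4-PBA. All 4-PBA libraries were above all others, with a log2 fold change of 1.07 (SE 0.44) and an unadjusted p of 0.0384 in edgeR's quasi-likelihood test. The call held in 2 of the 6 fits that left out 1 library and was lost without CVST+Ligation 1 or 2 or 4-PBA 1 or 2. Without CVST+Ligation 2 the log2 fold change was 0.94 (unadjusted p = 0.101, edgeR's quasi-likelihood test). In the CVST group Derl3 had 0.705 to 1.27 CPM. Its relatives Derl1 and Derl2 had log2 fold changes of 0.02 (SE 0.11) and 0.16 (SE 0.14), and Herpud1, an ER membrane protein induced by the same factors, -0.05 (SE 0.15).

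Targets of the integrated stress response leaned the other way. Of 44 tested, 13 had a positive log2 fold change, the median was -0.11, and 0 were called. The groups did not overlap in 8 genes (18.2%, where 7.73% of all genes did not), 6 of them lower with 4-PBA. Asns, asparagine synthetase, had 261, 264 and 332 CPM without and 229, 252 and 242 CPM with 4-PBA, with a log2 fold change of -0.24 (SE 0.14). The amino acid transporter genes Slc3a2 (-0.26, SE 0.15), Slc7a5 (-0.25, SE 0.16) and Slc7a1 (-0.44, SE 0.36) and the methionyl-tRNA synthetase gene Mars1 (-0.21, SE 0.10) were also lower in every 4-PBA library, as was Fgf21, a stress-induced hormone, at levels of at most 0.791 CPM. Ddit4, an inhibitor of mTORC1, was higher in every 4-PBA library, as was Bcl2l11 (BIM), a BH3-only protein. Ddit4 lay at 26.4 to 27.0 CPM against 20.4 to 23.7 CPM. The 11 genes with the ATF4 element had a median log2 fold change of -0.12 and 0 calls. The list had 2 genes called higher, 1 lower and a median of -0.07 without CVST+Ligation 2.

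No kinase, subunit or phosphatase regulator of eIF2α was called among 15, and 3 had a positive log2 fold change. Ppp1r15a (GADD34), which reverses the phosphorylation of eIF2α, had 21.9, 29.9 and 35.4 CPM against 22.9, 32.9 and 27.3 CPM. In the BCL2 family, 0 of 16 tested genes were called. Bax, a pore-forming effector of apoptosis, and Bcl2, which restrains it, had log2 fold changes of 0.18 (SE 0.28) and 0.30 (SE 0.45). Among caspases and inflammasome components 0 of 19 were called, with a log2 fold change of 0.08 (SE 0.45) for Nlrp3, a sensor of the inflammasome.

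No histone deacetylase or sirtuin was called. 4-PBA is known to inhibit zinc-dependent histone deacetylases, whereas sirtuins, which depend on NAD, are not known as its targets and are given for comparison. The 11 histone deacetylase genes had a median log2 fold change of 0.04, and for 10 of them the 95% interval lay within 1 log2 unit of 0. The 7 sirtuin genes had a median of 0.004, all with the interval inside that limit. Without CVST+Ligation 2, 0 histone deacetylases and 1 sirtuin were called, Sirt2 (0.40). Hdac1, Hdac2 and Hdac3, class I enzymes, had 0.04 (SE 0.14), 0.05 (SE 0.16) and -0.01 (SE 0.13). Sirt2, a deacetylase abundant in myelin, had 137, 204 and 179 CPM without and 225, 201 and 194 CPM with 4-PBA, the smallest p of the list (0.138, unadjusted, edgeR's quasi-likelihood test). Enzyme activity is not measured by these counts.

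Of the redox lists, glutathione metabolism alone had called genes with all libraries. In this list, a theme that the study drew from these same samples and that is therefore not independent evidence, 3 of 48 tested genes (6.25%, where 3.23% of all genes were) were called, all higher. Gpx3, a secreted glutathione peroxidase, had 12.6, 33.8 and 18.7 CPM without and 41.6, 71.2 and 47.4 CPM with 4-PBA. The groups were apart, with a log2 fold change of 1.30 (SE 0.38) that was called in all 6 fits that left out 1 library. The list had 5 of 49 genes called without CVST+Ligation 2 (10.2%, where 10% of all genes were in that fit), all higher. Ggt1, which splits extracellular glutathione, had 1.74, 2.27 and 1.98 CPM against 3.41, 3.16 and 3.09 CPM, called in 1 of the 6 fits. Gpx1, a cytosolic peroxidase, had a log2 fold change of 0.34 (SE 0.15), which was 0.51 without CVST+Ligation 2 and 0.22 without CVST+Ligation 3, and lost its call in 4 of the 6 fits. The most abundant members per length, Gstm1 and Gpx4, had 0.04 (SE 0.23) and 0.08 (SE 0.14). Over the list the median was 0.08.

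Of 40 antioxidant enzymes and NRF2 targets, 0 were called and 30 had a positive log2 fold change (median 0.13). Among them Fth1, the ferritin heavy chain, had 0.23 (SE 0.20) and Txn1, thioredoxin, 0.38 (SE 0.22). When CVST+Ligation 2 was left out, 4 were called higher and 1 lower (12.5%, where 10% of all genes were called). Of 14 NADPH oxidases and other oxidant sources, 0 were called (3 higher without CVST+Ligation 2). Nox4 came closest, with at most 0.206 CPM without and 0.325 to 0.648 CPM with 4-PBA.

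Inflammatory lists had positive medians. 4-PBA 3 was the highest library for most genes of activated microglia and for 15 of 29 cytokines and chemokines, 18 of 31 interferon-stimulated and 12 of 19 complement genes, but for 7 of 20 antigen presentation genes and 5 of 14 genes of border macrophages, neutrophils and lymphocytes. For activated microglia and phagocytes, 25 of 27 tested genes had a positive log2 fold change, the median was 0.45 and 1 was called (3 without CVST+Ligation 2). 4-PBA 3 was the highest library for 19 of the 27, and on the mean of the list it lay 1.15 log2 units above the CVST+Ligation mean, where 4-PBA 1 and 2 lay at -0.22 and 0.06. Homeostatic microglial genes had a median of 0.07 and 0 calls in 22, with Tmem119 at 12.7 to 18.2 CPM without and 13.3 to 16.6 CPM with 4-PBA. The called gene, Ccl3, encodes a chemokine of activated microglia. It had 0 counts in each CVST+Ligation library and 0.867, 0.463 and 1.37 CPM with 4-PBA, at least 6.58-fold higher against a floor of 3 counts per library. In the CVST group Ccl3 had 0.0542 to 1.02 CPM.

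Of 29 tested cytokines and chemokines, 4 (13.8%, where 3.23% of all genes) were called, all higher, namely Ccl3, Ccl2, Cntf and Ccl7, a further monocyte chemokine. These counts were 5 higher and 1 lower without CVST+Ligation 2. Ccl2, a chemokine for monocytes, had 0.0827, 0.979 and 0.615 CPM without and 0.379, 2.65 and 10.9 CPM with 4-PBA, and its call held in 3 of the 6 fits that left out 1 library. Without 4-PBA 3 the log2 fold change was 1.47 and not called. Cntf, a neurotrophic cytokine, owed its log2 fold change of 2.46 to 4-PBA 2 with 25.9 CPM, the other two having 2.55 and 2.86 CPM. Without 4-PBA 2 it was 0.51 and not called. Il1b had 0.0827 to 0.835 CPM without and 0 to 1.33 CPM with 4-PBA. Il6, Tnf, Il17a and Il10, also read by RT-qPCR, were too low to be tested, with at most 0.915 CPM in any of the 6 libraries. For Tnf, 13 reads with and 2 without 4-PBA gave a ratio of 6.3, with an exact 95% counting interval from 1.43 to 57.5. Of the 13 reads, 11 were in 4-PBA 3, and without that library 2 reads stood against 2. Il17a had 0 counts in all of them.

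Interferon-stimulated genes had a median log2 fold change of 0.38, with 28 of 31 positive and 2 called (6.45%). Ifi27 had 44.2, 47.3 and 37.7 CPM without and 56.0, 68.8 and 63.8 CPM with 4-PBA, with a log2 fold change of 0.55 (SE 0.17) called in all 6 fits that left out 1 library. Ifi35 was called with 0.81 (SE 0.30) and lost the call in 4 of those fits. The list had 10 of 32 genes called without CVST+Ligation 2, all higher. Antigen presentation had a summed level of 276, 472 and 304 CPM without and 309, 459 and 441 CPM with 4-PBA, so that CVST+Ligation 2 was the highest. It had 1 call in 20 (9 in 20 without CVST+Ligation 2), Psmb9 of the immunoproteasome with 0.89 (SE 0.37), called in 3 of the 6 fits that left out 1 library. Complement had 0 in 19 (2 without CVST+Ligation 2) and a median of 0.31. Among border macrophage, neutrophil and lymphocyte genes 1 of 14 was called, Cd4, with 0.331 to 0.361 CPM without and 1.35, 6.94 and 0.610 CPM with 4-PBA. Its call was lost without 4-PBA 2 (log2 fold change 1.46).

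Of oligodendrocyte and myelin genes, 3 of 25 tested (12%, where 3.23% of all genes) were called, all higher. Each of the 25 had a positive log2 fold change (median 0.43), and 20 had their highest level in 4-PBA 1. The summed level was 4211, 9487 and 6563 CPM without and 11645, 7802 and 8650 CPM with 4-PBA, so that CVST+Ligation 2 lay above 4-PBA 2 and 3. Mbp, myelin basic protein, had 1169, 2730 and 1937 CPM without and 3305, 2388 and 2046 CPM with 4-PBA. The ranges overlapped because of CVST+Ligation 2, and the log2 fold change was 0.41 (SE 0.29), or 0.74 and called without that library. The called genes were Mal (0.77, SE 0.34), Enpp2 (0.99, SE 0.44) and Cldn11 (0.70, SE 0.31), each losing the call in 3 or 4 of the 6 fits that left out 1 library. Enpp2, which encodes autotaxin, had 249, 452 and 349 CPM without and 1234, 443 and 407 CPM with 4-PBA, and its log2 fold change was 0.30 without 4-PBA 1. Mal had 0.51 without 4-PBA 1 and Cldn11 0.46 without CVST+Ligation 1. Of the 25, 17 (68%, where 10% of all genes) were called without CVST+Ligation 2, all higher. Astrocyte identity genes had a median of 0.003 and 0 calls in 18 (2 higher without CVST+Ligation 2). Reactive astrocyte genes had 0 calls in 24, and the list ran from -1.10 in 4-PBA 1 to 1.31 in 4-PBA 3 on the mean log2 scale.

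Vessel and barrier lists had 0 to 2 called genes each. Of 26 genes of endothelium and blood-brain barrier, Vcam1, an adhesion molecule for leukocytes, was called higher (63.9, 61.4 and 63.1 CPM against 73.4, 78.6 and 81.5 CPM, log2 fold change 0.31, SE 0.11). Sele, E-selectin, was called lower at levels of at most 0.615 CPM (log2 fold change -1.99, or -3.17 without 4-PBA 3). The 2 called genes were 7.69% of the list, where 3.23% of all genes were called. Neither call held in more than 3 of the 6 fits that left out 1 library. When CVST+Ligation 2 was left out, 3 of the 26 were called higher (11.5%, where 10% of all genes were called). No gene was called among 14 of pericytes and smooth muscle, 11 of lymphatic endothelium and the VEGF-C axis, or 17 of haemoglobin, haem breakdown and iron. Meninges and extracellular matrix had 1 call in 26 (3.85%, near the share of all genes), the matricellular gene Postn. It had 0.785, 0.618 and 0.440 CPM against 1.90, 4.33 and 1.14 CPM (log2 fold change 1.99, or 1.29 without 4-PBA 2). Coagulation had 1 call in 18 (5.56%), the factor V gene F5, with 1.65, 1.65 and 2.11 CPM against 20.5, 4.97 and 3.09 CPM. The call was lost without 4-PBA 1 (log2 fold change 1.17). In the fit without CVST+Ligation 2, 3 of 26 (11.5%) meningeal and matrix genes and 2 of 18 (11.1%) coagulation genes were called, all higher.

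By median log2 fold change, hypothalamic neuropeptides showed the largest differences of any list apart from the pituitary one. Of 14 tested, 8 were called higher and 1 lower (64.3%, where 3.23% of all genes were called), and the median log2 fold change was 1.89. With 4-PBA the summed level was 595, 881 and 868 CPM against 311, 164 and 468 CPM. Hcrt encodes the precursor of the orexins, peptides of the lateral hypothalamus that promote wakefulness. It had 0.165, 0.103 and 1.05 CPM without and 23.9, 55.6 and 64.4 CPM with 4-PBA, and 0 to 0.108 CPM in the CVST group. The CVST+Ligation values rest on 4, 2 and 24 reads. All 4-PBA libraries were far above all others, with a log2 fold change of 6.73 (95% interval 5.0 to 8.46). Pmch, the precursor of melanin-concentrating hormone from the same area, had 0.909, 1.19 and 17 CPM without and 213, 316 and 378 CPM with 4-PBA. CVST+Ligation 3 was the highest of its group for both peptides.

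The peptides of magnocellular neurons, Oxt (oxytocin) and Avp (vasopressin), were carried by 4-PBA 1 and 2. Oxt had 3.79, 22.0 and 0.838 CPM with 4-PBA against 2 reads in all 3 CVST+Ligation libraries together. The ratio of summed counts was 298 with an exact 95% counting interval from 82.1 to 2466, which covers counting error only. Of the 615 reads with 4-PBA, 523 were in 4-PBA 2, and both reads of the CVST+Ligation group were in CVST+Ligation 2. The fitted log2 fold change of Oxt was 7.94 with all libraries and 5.98 without 4-PBA 2, values that depend on the few reads of the other group. Avp had 0, 0.309 and 0.0440 CPM without and 29.9, 64.5 and 0.610 CPM with 4-PBA. Pomc, the precursor of melanocortins and of corticotropin, had 1.07, 1.03 and 2.42 CPM against 4.55, 11.7 and 13.3 CPM, with a log2 fold change of 2.70 (SE 0.48). Hcrt, Pmch, Oxt, Avp, Pomc and Hdc, the gene of histamine synthesis (2.44, SE 0.66), were called in all 6 fits that left out 1 library. Cartpt (1.34, SE 0.46) and Tac2 (1.79, SE 0.64) lost the call without 4-PBA 2.

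The 1 gene of this list that was called lower was Vip, a peptide of cortical interneurons and of the suprachiasmatic nucleus. It had 17.3, 10.2 and 12.3 CPM without and 7.69, 6.73 and 6.55 CPM with 4-PBA. Sst, somatostatin, which cortical interneurons also express, had 203, 108 and 272 CPM against 224, 242 and 129 CPM and a log2 fold change of 0.03 (SE 0.38). Npy had -0.19 (SE 0.52), Gal 1.99 (SE 0.97) and Trh 1.68 (SE 1.06), none of them called with all libraries. Npvf, an RFamide peptide of the dorsomedial hypothalamus, was too low to be tested, with 0 counts in every CVST+Ligation library and in 4-PBA 1, and 1.01 and 1.83 CPM in 4-PBA 2 and 3.

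**Figure D3:**
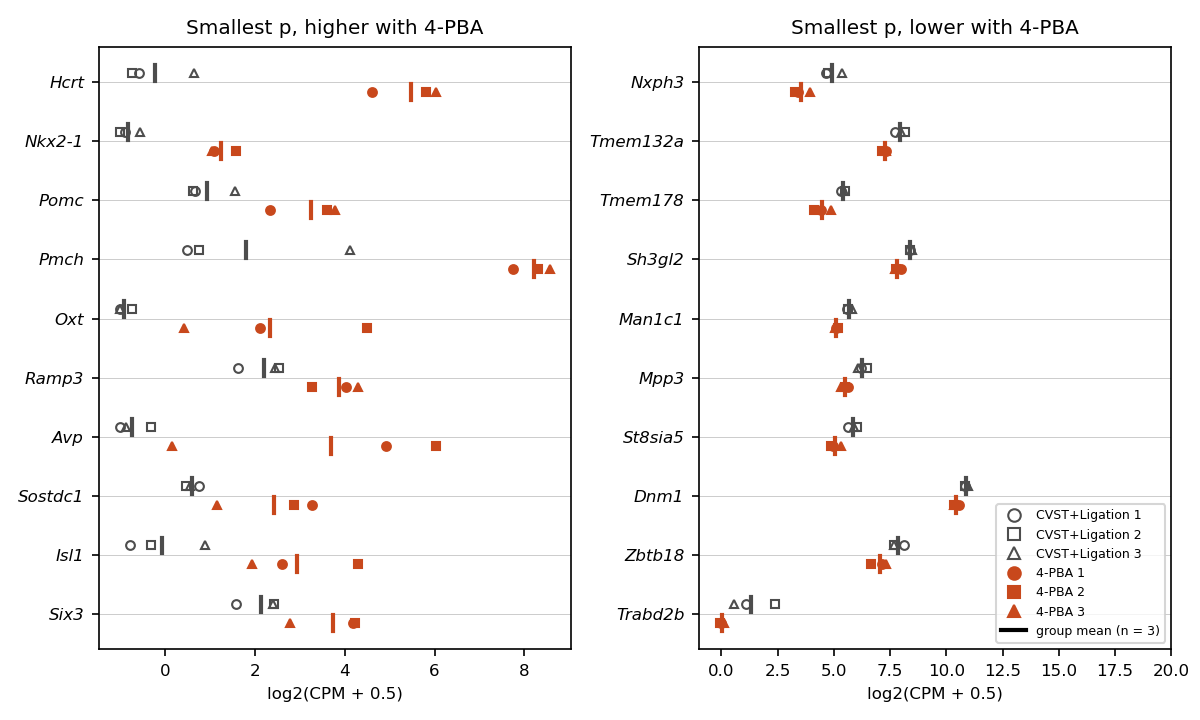
Log2(CPM + 0.5) in each library (horizontal) of the 10 higher and the 10 lower genes that had the smallest p and no overlap between groups, with 1 point per library and a bar at each group mean of 3. On the left, Hcrt and Pmch are apart by several log2 units in all 4-PBA libraries, whereas 4-PBA 3 is close to the CVST+Ligation range for Oxt, Avp and Sostdc1. On the right, most of the genes that were lower differ by smaller steps, and the CVST+Ligation libraries are spread widely for Trabd2b.

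Some hypothalamic transcription factors and receptors were higher as well. Of 26 tested, 9 (34.6%, where 1.81% of all genes were called higher) were called, all higher. The log2 fold change was positive for 22 and negative for 4, with a median of 1.09. The groups overlapped in 1 of the 9, Lhx8. Without CVST+Ligation 2, 12 of 28 were called higher, where 10% of all genes were called in either direction. Nkx2-1, a homeodomain factor of the ventral hypothalamus, had 0.0413, 0 and 0.176 CPM without and 1.63, 2.48 and 1.56 CPM with 4-PBA (log2 fold change 4.56, SE 0.73). Its CVST+Ligation values rest on 1, 0 and 4 reads. Isl1, which also marks striatal projection neurons, had 0.0827, 0.309 and 1.36 CPM against 5.58, 19.0 and 3.32 CPM. Six3, a forebrain factor, had 2.48, 4.84 and 4.75 CPM against 17.7, 18.2 and 6.4 CPM. In the CVST group, Nkx2-1 had 0.325 to 0.399 CPM, Isl1 1.36 to 2.93 CPM and Six3 4.50 to 8.33 CPM. Of 6 tested pituitary genes, 2 (33.3%) were called, both higher. Cga, the common glycoprotein hormone subunit, was called with 0, 0 and 1.27 CPM against 12.3, 1.6 and 13.3 CPM. Lhb was called at up to 2.17 CPM, in 2 of the 6 fits that left out 1 library. Gh, growth hormone, had 0, 0.412 and 27.0 CPM against 124, 0.337 and 151 CPM, so that 4-PBA 2 stayed at the level of CVST+Ligation 2.

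The choroid plexus, the epithelium that secretes cerebrospinal fluid, was the second group with many higher genes. Of 20 tested, 9 (45%, where 1.81% of all genes) were called higher, 19 were positive and the median log2 fold change was 1.53. The number called higher was again 9 without CVST+Ligation 2. Sostdc1, a secreted BMP and Wnt antagonist, had 1.20, 0.876 and 0.967 CPM without and 9.16, 6.77 and 1.71 CPM with 4-PBA (log2 fold change 2.52, SE 0.55). Clic6, a chloride channel gene, had 1.28, 3.66 and 2.55 CPM against 31.2, 9.64 and 4.72 CPM, and a log2 fold change of 2.60 that was 1.54 without 4-PBA 1. Ttr, transthyretin, was not called, with 77.2, 5.72 and 835 CPM against 3013, 631 and 420 CPM, where CVST+Ligation 3 reached into the 4-PBA range. Without that library its log2 fold change was 5.02 and called. 4-PBA 1 held the highest level for 14 of the 20. In the CVST group Ttr had 769 to 961 CPM.

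Some genes of the thalamus, striatum and septum were called higher, while the summed levels of these lists overlapped between the groups. Of 23 thalamic genes, 9 (39.1%, where 1.81% of all genes) were called higher, with a list median of 0.32, and without CVST+Ligation 2, 9 were called higher and 1 lower. The summed thalamic level was 551, 1503 and 734 CPM without and 1155, 823 and 1271 CPM with 4-PBA, with CVST+Ligation 2 the highest. Ramp3, a receptor activity-modifying protein, had 2.56, 5.26 and 4.92 CPM without and 15.9, 9.13 and 19.2 CPM with 4-PBA (log2 fold change 1.80, SE 0.35). Prkcd, a protein kinase C isoform of thalamic relay neurons, had 26.1, 45.9 and 119 CPM against 273, 141 and 323 CPM, and 18.1 to 21.8 CPM in the CVST group. Tcf7l2, the factor that marks thalamic neurons, had 32.4, 74.6 and 31.1 CPM against 51.2, 23.5 and 91.3 CPM and was not called. Striatal medium spiny neuron genes had 5 calls in 23 (21.7%), all higher (4 without CVST+Ligation 2), and 21 of the 23 were highest in 4-PBA 2. Ppp1r1b, which encodes DARPP-32, had 60.6, 67.6 and 104 CPM against 102, 253 and 49.4 CPM, with 4-PBA 3 the lowest of the 6, and it was called (1.20) when 4-PBA 3 was left out. In septum, habenula and basal forebrain, 6 of 20 (30%) were called higher (11 higher and 2 lower without CVST+Ligation 2), among them Lhx8, a factor of cholinergic neurons, with 0, 0 and 0.484 CPM against 7.59, 7.03 and 0 CPM. The summed level of that list was 403, 433 and 334 CPM without and 337, 340 and 310 CPM with 4-PBA.

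Genes that were lower with 4-PBA changed by smaller amounts and at higher levels. Among those with groups that did not overlap, Nxph3, a secreted ligand of neurexins, had the smallest p, with 24.5, 26.1 and 40.4 CPM without and 10.1, 9.21 and 14.8 CPM with 4-PBA (log2 fold change -1.41, SE 0.26). Tmem132a had 209, 286 and 256 CPM against 160, 139 and 156 CPM, and Tmem178 had 39.2, 44.1 and 42.7 CPM against 21.1, 16.9 and 28.5 CPM. Sh3gl2 (endophilin A1) and Dnm1 (dynamin 1), which act in synaptic vesicle endocytosis, had log2 fold changes of -0.60 (SE 0.13) and -0.44 (SE 0.11). Dnm1 had 1820, 1796 and 1981 CPM without, 1518, 1299 and 1300 CPM with 4-PBA and 2006 to 2028 CPM in the CVST group. The others of these 10 were Man1c1 (-0.57), an alpha-mannosidase, Mpp3 (-0.77), a membrane scaffold, St8sia5 (-0.79), a sialyltransferase of gangliosides, Zbtb18 (-0.77), a transcriptional repressor in cortical development, and Trabd2b (-2.22). Trabd2b had 1.61, 4.64 and 0.967 CPM without and 0.488, 0.463 and 0.572 CPM with 4-PBA, and its log2 fold change was -1.32 without CVST+Ligation 2. All 10 were called in all 6 fits that left out 1 library.

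Of 30 tested genes of cortical excitatory neurons, 4 (13.3%, where 1.42% of all genes) were called lower and 0 higher. The median log2 fold change was -0.56. The summed level was 3254, 1679 and 3165 CPM without and 1643, 1691 and 1960 CPM with 4-PBA, so that CVST+Ligation 2 lay in the range of the 4-PBA libraries. Slc17a7, the vesicular glutamate transporter of cortical neurons, had 1433, 419 and 1406 CPM without and 520, 567 and 732 CPM with 4-PBA. The called genes included Neurod1 (called in 6 of 6 fits that left out 1 library), Ccn2 (2 of 6) and Cux2, a factor of upper-layer neurons (-0.51, SE 0.21, 1 of 6). Cux2 had 49.0, 56.5 and 53.3 CPM without and 38.7, 34.0 and 38.6 CPM with 4-PBA, lower than in every CVST+Ligation library. Slc17a7, not called with all libraries (-0.84, SE 0.39), had -1.21 and was called without CVST+Ligation 2. Without CVST+Ligation 2, 14 of 30 were called lower, where 10% of all genes were called in either direction, and the median was -0.68. Hippocampal genes had 2 calls in 22 (9.09%), both lower (median -0.31), and 6 without that library.

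Lists of neuronal function had negative medians. For presynaptic vesicle release, 31 of 36 had a negative log2 fold change, the median was -0.27 and 3 (8.33%, where 3.23% of all genes) were called, all lower (10 lower and 3 higher without CVST+Ligation 2). Snap25, a SNARE protein of vesicle fusion, had 1363, 1718 and 1612 CPM without and 1128, 1214 and 1156 CPM with 4-PBA (log2 fold change -0.42, SE 0.13), called in all 6 fits that left out 1 library. Calcium and calmodulin signalling had 6 genes called lower and 1 higher in 58 (12.1%), with a median of -0.25 (15 and 3 without CVST+Ligation 2). The theme comes from these same samples and is not independent evidence. Itpr1, the inositol trisphosphate receptor that releases calcium from the ER, had 524, 1622 and 463 CPM against 356, 344 and 258 CPM. The log2 fold change of -1.45 was -0.62 and not called without CVST+Ligation 2. Glutamate and GABA receptors had 2 genes called higher and 1 lower in 40 (7.5%), potassium and sodium channels 2 and 2 in 64 (6.25%), and neuropeptide processing 1 and 1 in 30 (6.67%). Without CVST+Ligation 2 these counts were 4 and 9, 3 and 8, and 1 and 3. Immediate early genes had 2 called lower in 40 (5.0%), Klf2 (-0.76, SE 0.26) and Dusp1 (-0.97, SE 0.41). Without CVST+Ligation 2 they had -0.60 and -0.56, not called.

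CVST+Ligation 2 was the highest library for most cerebellar genes, 5 of 8 genes of serotonin and noradrenaline neurons and 10 of 12 midbrain and brainstem factors, but some calls held without it. Of 21 cerebellar genes, 8 (38.1%, where 1.42% of all genes) were called lower, and the list had a median log2 fold change of -1.33. Without that library 3 were called higher and 3 lower, where 10% of all genes were called, with a median of 0.09. The 3 lower genes, Fat2, Car8 and Neurod1, were called in all 6 fits that left out 1 library. Fat2, a cadherin of granule cells, had 0.372, 393 and 9.85 CPM without and 0.325, 0 and 0.533 CPM with 4-PBA, so that the groups overlapped, and its log2 fold change was -8.83 with and -4.10 without CVST+Ligation 2. Car8, a Purkinje cell gene, had 15.4, 385 and 21.5 CPM without and 7.75, 9.72 and 9.03 CPM with 4-PBA, and its log2 fold change was -3.99 with and -1.05 without CVST+Ligation 2. Neurod1, a factor of granule cells that the cortical and hippocampal lists hold too, had 21.2, 88.2 and 15.0 CPM against 6.23, 5.22 and 10.5 CPM, and its log2 fold change was -2.50 with and -1.29 without that library. Tph2, the serotonin-synthesising enzyme of the raphe, had 136 CPM in CVST+Ligation 2 and 0.463 to 1.98 CPM in the other 5 libraries. Its log2 fold change was -5.41 with and -0.12 without that library. Gata3 (-1.56) and En2 (-2.69), factors of midbrain and hindbrain, were also called lower with it and not without it (-0.93 and 0.17), so that En2 changed sign.

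Lists of general cell processes had 0 or 1 called gene each. None of 75 nuclear oxidative phosphorylation subunits was called (median 0.05), none of 31 proteasome subunits, and none of 28 heat shock proteins outside the ER (median -0.03). Cytosolic ribosomal protein genes were positive in 72 of 73, with a median of 0.15 and 0 calls, and 70 of the 73 were highest in 4-PBA 3. Of 13 mitochondrially encoded subunits 0 were called and 10 were positive, with a median of 0.14 that was -0.07 without CVST+Ligation 2. Of 30 genes of cholesterol and fatty acid synthesis, Srebf1, the factor that drives fatty acid synthesis, was called higher (0.53, SE 0.21), and of 20 clock genes Nr1d1 was called lower (-0.38, SE 0.16, or -0.25 without CVST+Ligation 3), each in 2 of the 6 fits that left out 1 library. Of 32 genes of glycolysis and the hypoxia response 0 were called (median -0.13).

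**Figure D4:**
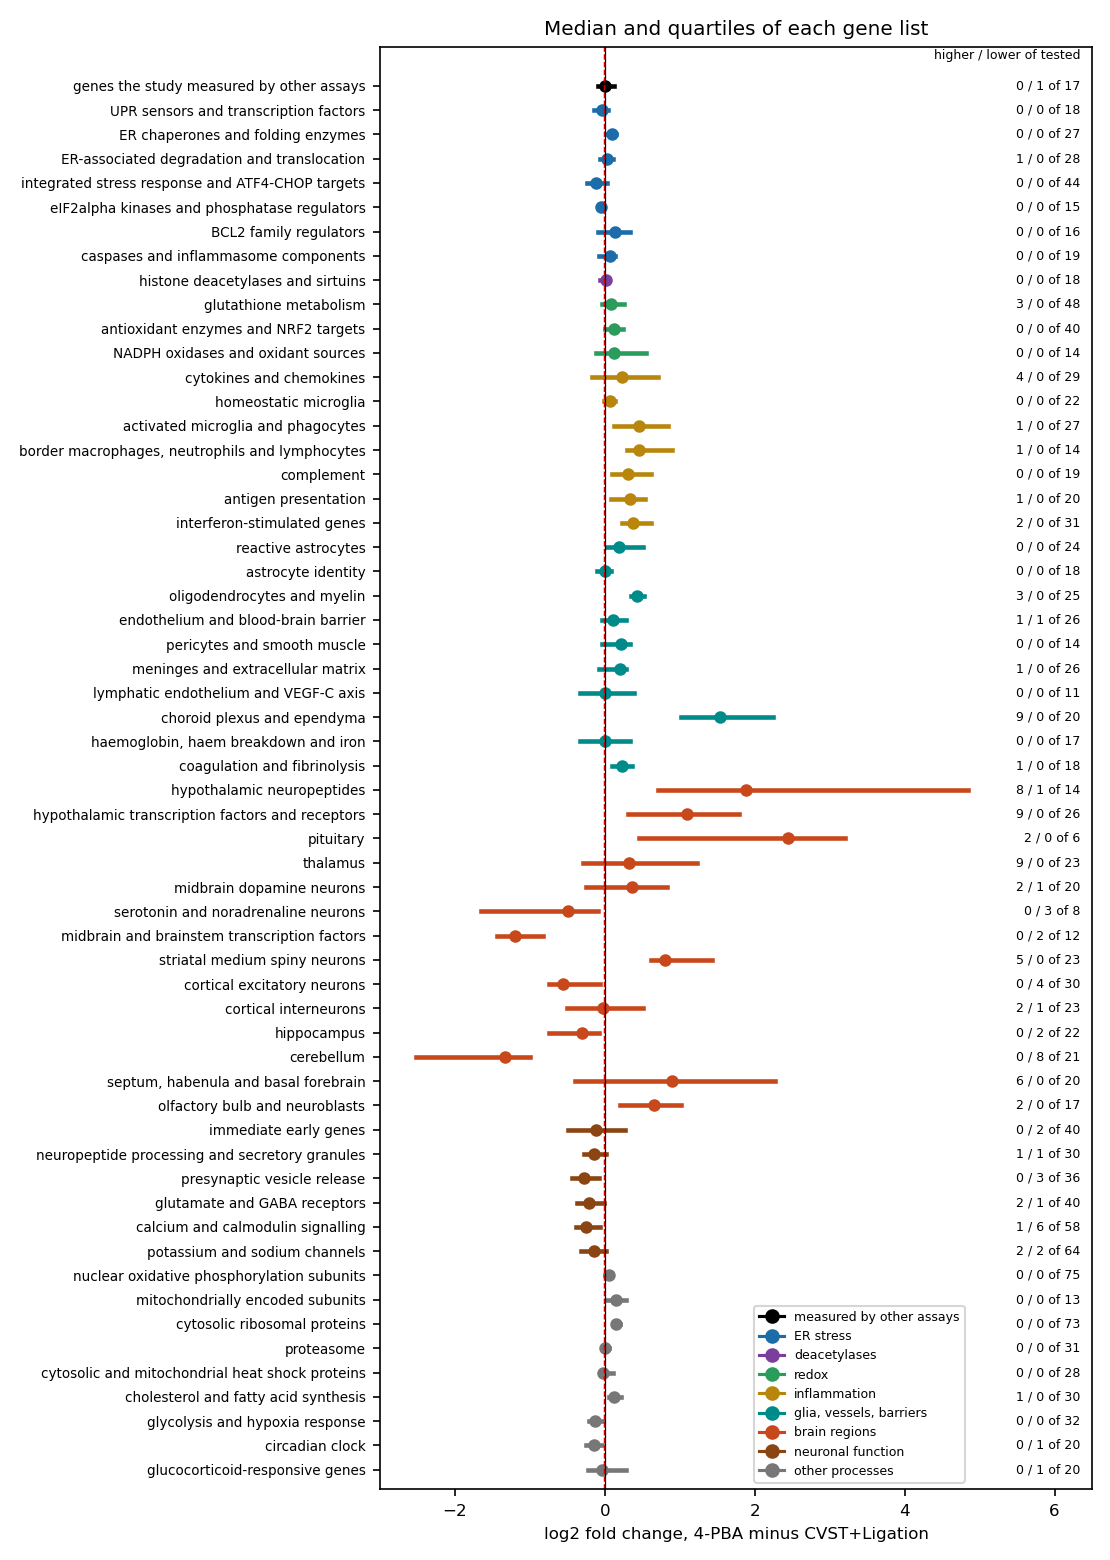
Median (point) and quartiles (line) of the log2 fold change, 4-PBA minus CVST+Ligation (horizontal), for each of 58 gene lists, with the number of genes called higher and lower of those tested at the right and a dashed line at the median of all genes (-0.02). The ER stress and deacetylase lists sit close to 0 with short lines, the hypothalamic, pituitary and choroid plexus lists lie furthest to the right, and the cerebellar and brainstem lists furthest to the left.

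Genes of the brain region and choroid plexus lists made up 63 of the 476 called genes (13.2%), whereas they were 245 of the 14746 tested (1.66%). Of the 63, 47 were higher and 16 lower with 4-PBA. They made up 5.68% of the called genes, 85 of 1497, without CVST+Ligation 2. The library with the highest values differed between lists. Most cerebellar genes were highest in CVST+Ligation 2, most choroid plexus and myelin genes in 4-PBA 1, most striatal genes in 4-PBA 2, and most activated microglial, reactive astrocyte and ribosomal protein genes in 4-PBA 3. On the mean of the list, the hypothalamic peptides lay 1.78, 2.71 and 2.11 log2 units above the CVST+Ligation mean in 4-PBA 1 to 3, where CVST+Ligation 3, the highest of its group, was at 0.60. The choroid plexus list had 2.00, 0.93 and 0.60 against at most 0.54, so that 4-PBA 3 exceeded CVST+Ligation 3 only slightly.

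**Figure D5:**
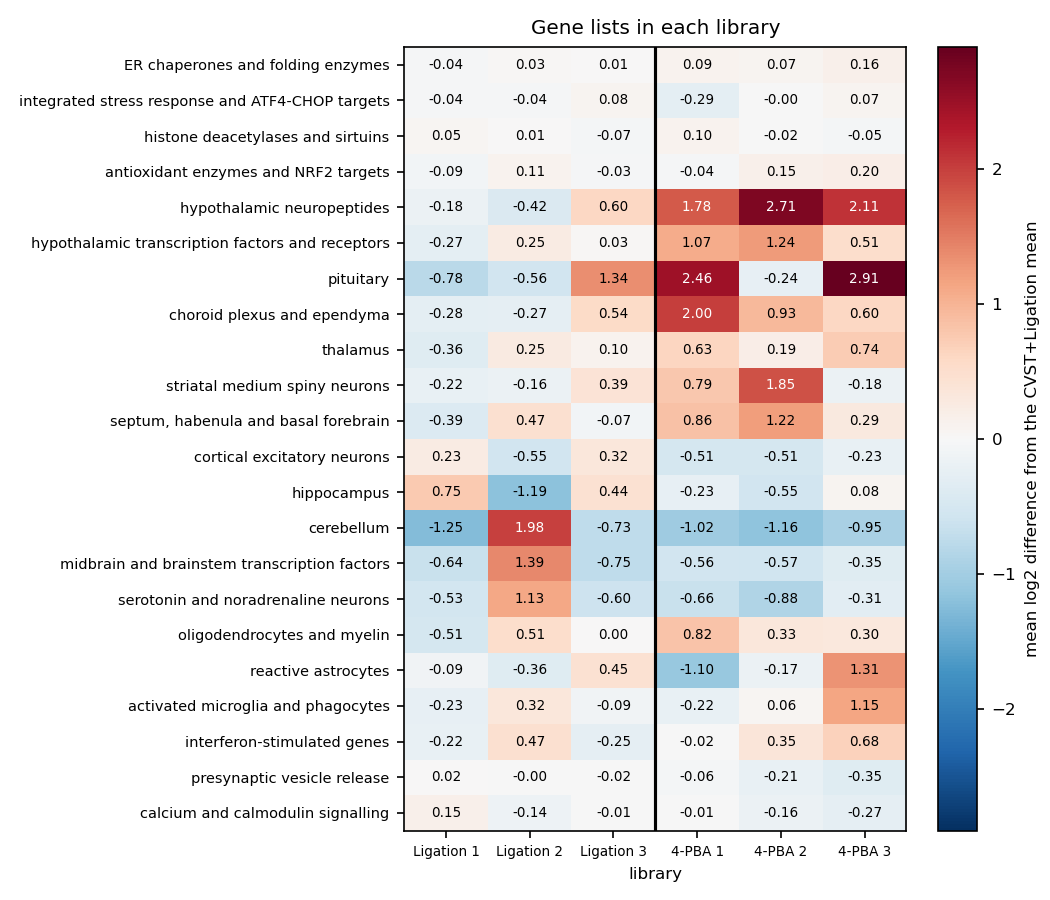
Mean difference of log2(CPM + 0.5) from the CVST+Ligation mean (colour and number) for 22 gene lists (rows) in the 3 CVST+Ligation and 3 4-PBA libraries (columns). The rows of ER chaperones, stress response targets and deacetylases are pale throughout, the hypothalamic peptide row is dark in all 4-PBA libraries, and the cerebellar row is dark in CVST+Ligation 2.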

How the data were processed

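Brain RNA of 9 mouse libraries in 3 groups of 3 was sequenced, and 6 libraries were compared here. Per the labels and the study's methods, the authors trimmed reads with fastp, aligned them with HISAT2 and quantified genes with StringTie and RSEM, with mm10 and GRCm38 named as builds and no versions given. The authors deposited raw read counts per gene and FPKM values, which equal the counts scaled by library total and gene length. Totals of the 6 libraries were 18100739 to 25091498 counts. Intervals on counts cover counting error only.

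Counts were analysed with edgeR 4.0.16 in R 4.3.3 (TMM scaling, filterByExpr, glmQLFit and glmQLFTest), with all 9 libraries sharing the estimate of the spread and the contrast 4-PBA minus CVST+Ligation. Called means an unadjusted p below 0.05, and p-values were adjusted over all 14746 genes by the Benjamini-Hochberg method. Alternatives were DESeq2 1.42.0, limma 3.58.1 on log2(FPKM + 1) and log2(FPKM + 0.1), other scalings and count filters, the 2 groups alone, a replicate block and leaving out each library. Mean list levels used log2(CPM + 0.5).

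The comparison, the 58 gene lists and the tests were chosen with earlier results of these data known. Named genes are those the study measured by other assays, members of the ER stress, deacetylase and hypothalamic peptide lists, the 10 higher and 10 lower genes of smallest p among those without overlap between groups, and in each list the 3 members with the smallest p and the 2 with the highest level per length. Cell type and region markers are named too, and any other gene (Ccl7) was chosen after its values were seen. Promoters are from RefSeq (GRCm38.p6), and primers were matched to GENCODE transcripts. The methods name no pairing of libraries, and the low correlations of same-numbered CVST+Ligation and 4-PBA libraries left it unsettled. The main fit therefore has no block.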

Additional observations from a re-analysis of the deposited data

How the results depend on the processing

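The number of genes with an unadjusted p below 0.05 (476 with all libraries) ranged from 256 without 4-PBA 2 to 1497 without CVST+Ligation 2 in the fits that left out 1 library. The number with an adjusted p below 0.05 (0 with edgeR's quasi-likelihood test) was 22 with DESeq2, 2 with limma on log2(FPKM + 1), 1 with the replicate block, and 0 to 2 in the fits that left out 1 library. The percentage of called genes that were higher (56.1%) was 66.1% with total counts alone, 72.4% with limma on log2(FPKM + 1), 71.0% on log2(FPKM + 0.1), 50.3% when every library had to hold 10 counts of a gene and 50% with the 2 compared groups alone. It ranged from 49.0% to 68.8% in the fits that left out 1 library. Among 123 named genes, the log2 fold change changed sign with a call in either fit for Casp12 and En2 without CVST+Ligation 2 and for Gfap without 4-PBA 3. In 57 of 950 refits of named genes not called with all libraries the sign changed with no call in either fit. It ranged from -0.43 to 0.93 for Casp12, from -0.95 to 0.48 for Gfap and from -3.35 to 0.17 for En2 over the fits that left out 1 library. The cause was not tested.

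The labels give the groups the same replicate numbers. Deviations of same-numbered CVST+Ligation and 4-PBA libraries correlated with r of 0.154, 0.053 and 0.133, so the numbers were not taken as pairs, although each of these libraries correlated best with its own number, a hint from the data and not from the design. With the replicate block, 521 genes had an unadjusted p below 0.05 and 1 an adjusted p below 0.05 (Hcrt, adjusted p = 0.0312 in edgeR's quasi-likelihood test). Of 63 named genes called without the block, 12 had an unadjusted p above 0.05 with it (Derl3, Ggt1, Gpx1, Mal, Enpp2, Sele, Lhx8, Lhb, Dusp1, Tph2, Gata3 and En2), each with the same direction. With 3 libraries a group, the median 95% interval reached 0.54 log2 units to each side.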
